A study of Mus musculus with 24 samples.

Results

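The genes described here are 9 markers of excitatory neurons of the hippocampal subfields, chosen by name from the 53379 genes of the count table. Prox1, C1ql2, Calb1 and Dsp mark granule cells of the dentate gyrus, Wfs1, Fibcd1 and Pou3f1 mark pyramidal cells of CA1, and Bok and Cpne4 mark those of CA3. The mice were adult male C57/BL6N, and right hippocampi were taken 24 hours after kainic acid (KA) or saline (SH, sham) had been injected into the deep cortex beside the hippocampus. Each treatment had 8 mice in 3 pools, 4 mice in replicate 1 and 2 mice in each of the other two. Nuclei were sorted by the neuronal protein NeuN, and each pool gave 1 mRNAseq library of NeuN+ nuclei (neurons) and 1 of NeuN- nuclei (glia), 12 libraries in all.

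Signals run through the hippocampus along a chain of excitatory cells, from granule cells through their mossy fibres to CA3 and on to CA1. Each stage has its own set of expressed genes, so that the level of a subfield gene in sorted nuclei reflects both the number of such nuclei and the RNA in each. In these bulk libraries, fewer cells of a type and less RNA per cell cannot be told apart. Kainic acid activates glutamate receptors and elicits seizures, to which granule cells, CA3 and CA1 are known to be unequally vulnerable.

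Libraries held 7769400 to 40364768 counts, and all 9 markers passed the filter on low counts, with 20 to 6887 reads per library. Levels are given as CPM, read counts scaled to a common library size, after TMM normalization, and logFC is the log2 fold change of KA against SH with its standard error. SH glia replicate 1 and KA glia replicate 2 were amplified from about 0.05 ng RNA with 15 PCR cycles in place of about 1 ng with 10 cycles. In SH glia replicate 1, Fibcd1 had 27 reads and Cpne4 had 20. The replicate 3 libraries listed 36165 to 42160 genes with a count, against 40660 to 47748 in the others.

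Among the granule cell markers, Calb1 and C1ql2 were lower in KA than in SH in both sorted fractions, with only Calb1 passing an FDR of 0.25, whereas Prox1 differed by less than the spread between pools. Calb1 (ENSMUSG00000028222, GRCm38 chromosome 4 from 15881264 to 15908064) encodes calbindin, a calcium-binding protein of granule cells that is also found in CA1 pyramidal cells and interneurons. Its level in SH neurons was 218, 125 and 168 CPM in replicates 1, 2 and 3, and in KA neurons it was 84.0, 60.5 and 49.9 CPM. In glia the 3 SH pools held 35.4, 30.7 and 43.3 CPM and the 3 KA pools 13.6, 14.8 and 11.0 CPM. All KA libraries lay below all SH libraries in either fraction. Calb1 fell by 1.40 on the log2 scale in neurons (standard error 0.33, FDR 0.213) and by 1.47 in glia (standard error 0.34, FDR 0.124). With the replicate number as a block, the FDR was 0.00583 in neurons and 0.00279 in glia. Without one library, the call in neurons remained only when KA neurons replicate 1 was left out (FDR 0.246), and that in glia only when SH glia replicate 2 was left out (FDR 0.119). Without both low-input libraries the FDR in glia was 0.906, with a logFC of -1.78.

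C1ql2 (ENSMUSG00000036907, chromosome 1 from 120340582 to 120343174) encodes a secreted C1q-like protein that organizes mossy fibre synapses. SH neurons held 339, 201 and 280.2 CPM, and KA neurons held 135, 119 and 113 CPM. Here too the KA pools lay below the SH pools. In SH glia the values were 32.8, 50.4 and 68.1 CPM and in KA glia 14.2, 21.9 and 34.4 CPM, so that the highest KA library passed the lowest SH library by a small margin. The logFC was -1.16 in neurons (standard error 0.39, FDR 0.792) and -1.10 in glia (standard error 0.39, FDR 0.657), short of the threshold in the 12-library fit. The replicate block gave an FDR of 0.0137 in neurons and 0.00943 in glia, and a fit of the neurons alone gave 0.102. The study also treated the cell types separately but tested another set of genes. It did not list C1ql2 as lower in neurons or glia.

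Prox1 (ENSMUSG00000010175, chromosome 1 from 190118035 to 190170714) encodes the homeobox factor that sets granule cell identity, and it is also known in interneurons and in the oligodendrocyte lineage. Its values were 82.5, 148 and 219 CPM in SH neurons and 120.4, 171 and 188 CPM in KA neurons. Glia held 103, 159 and 206 CPM in SH and 115, 103 and 275 CPM in KA. SH and KA overlapped in both fractions. The logFC was 0.09 in neurons, with a 95% confidence interval from -0.80 to 0.99, and 0.08 in glia, with an interval from -0.82 to 0.97. An antisense gene, Prox1os, covers 1.59% of the exon bases of Prox1, and counting ignored the strand.

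Dsp (ENSMUSG00000054889, chromosome 13 from 38151294 to 38198577) encodes desmoplakin, a protein of desmosomes. SH neurons held 15.6, 27.1 and 25.0 CPM and KA neurons 14.6, 14.6 and 8.79 CPM, which left a narrow gap between the groups. In glia, SH values of 15.0, 12.6 and 4.60 CPM overlapped with KA values of 9.21, 10.9 and 3.62 CPM. Its logFC was -0.83 in neurons (standard error 0.47, FDR 1.0) and -0.43 in glia (standard error 0.48). Gm10129 on the opposite strand covers 5.17% of the exon bases of Dsp.

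**Figure D1:**
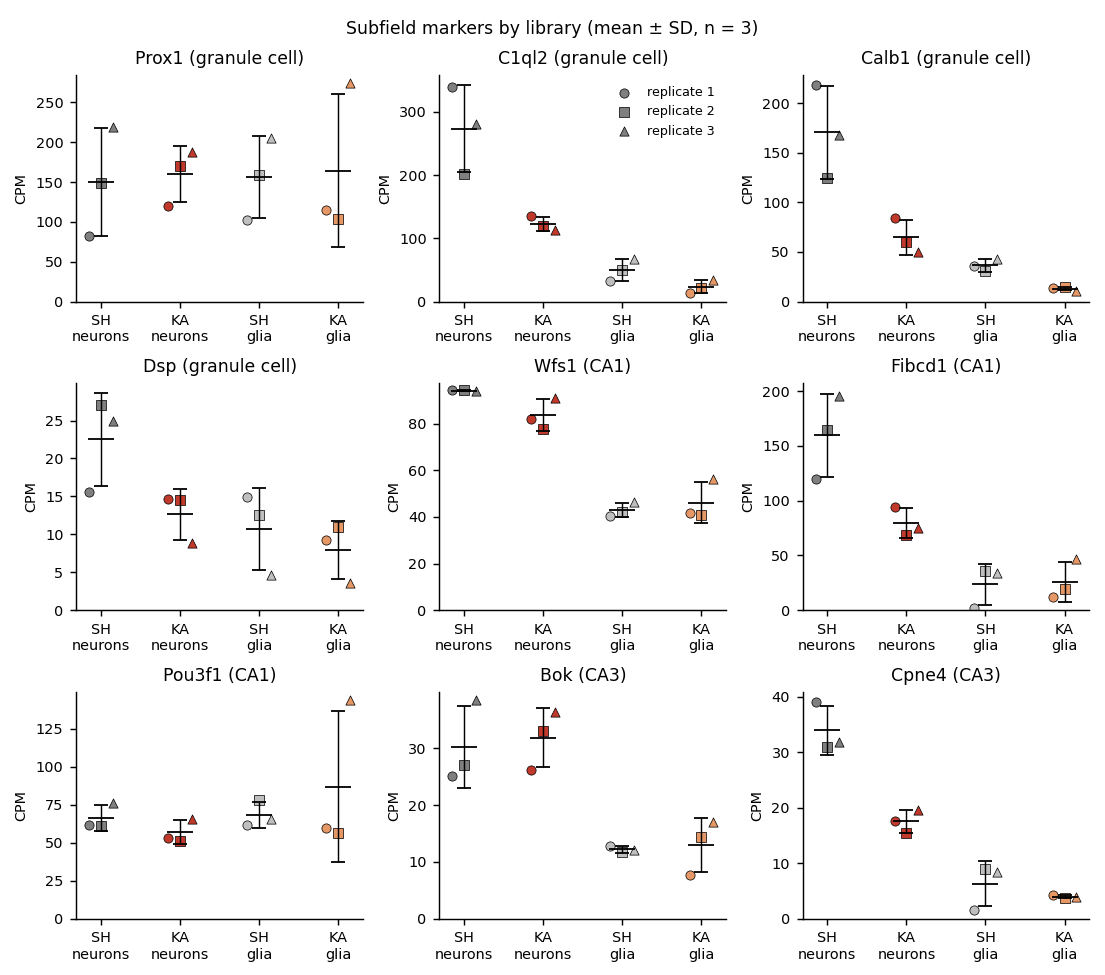
CPM of each of the 9 markers (vertical axes from 0) in the 12 libraries, with SH and KA neurons and SH and KA glia along the horizontal axis; symbols mark the replicate, and bars the mean and SD of 3 pools. Calb1 and C1ql2 are lower in KA in neurons, while Prox1 overlaps between groups throughout.

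The CA1 markers did not pass the threshold in neurons or glia. Fibcd1 (ENSMUSG00000026841, chromosome 2 from 31813290 to 31846005), a membrane receptor that binds acetylated compounds, had 120.0, 164 and 195 CPM in SH neurons and 94.6, 68.8 and 75.2 CPM in KA neurons. The groups did not overlap, with a logFC of -1.01 and a wide standard error of 0.66 (FDR 1.0). A fit of the neurons alone gave an FDR of 0.138. In glia, 35.4 and 33.5 CPM were counted in SH replicates 2 and 3 and 2.17 CPM in SH replicate 1, the low-input library, against 12.3, 19.2 and 46.8 CPM in KA. The logFC in glia was 0.14 with all libraries and -0.26 without both low-input libraries.

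Wfs1 (ENSMUSG00000039474, chromosome 5 from 36966104 to 36989205), which encodes wolframin of the endoplasmic reticulum, varied least between the SH pools of neurons among the 9 markers, at 94.2, 94.5 and 93.8 CPM. KA neurons held 81.9, 77.8 and 91.1 CPM, all below SH. The logFC was only -0.17 (standard error 0.28, 95% confidence interval from -0.73 to 0.38). Glia held 40.4, 42.3 and 46.4 CPM in SH and 41.5, 40.8 and 56.1 CPM in KA, with a logFC of 0.10.

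Pou3f1 (ENSMUSG00000090125, chromosome 4 from 124656807 to 124660655) encodes a POU homeobox factor that is known in CA1 and also in myelinating Schwann cells. It had 61.7, 60.7 and 76.3 CPM in SH neurons and 53.4, 51.2 and 65.8 CPM in KA neurons, with overlap. In SH glia there were 61.4, 78.2 and 65.3 CPM, and in KA glia 59.4, 56.6 and 144 CPM, where replicate 3 stood far above the others. The logFC was -0.22 in neurons (standard error 0.36) and 0.34 in glia (standard error 0.36). Gm2164, an antisense gene, covers 8.57% of the exon bases of Pou3f1.

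Of the CA3 markers, Cpne4 was lower in all KA neurons and Bok was not. Cpne4 (ENSMUSG00000032564, chromosome 9 from 104547286 to 105034544), a calcium-dependent phospholipid-binding copine, had 39.0, 30.9 and 31.8 CPM in SH neurons and 17.6, 15.5 and 19.6 CPM in KA neurons. The logFC was -0.95 (standard error 0.44, FDR 1.0), and a fit of the neurons alone gave an FDR of 0.165. Glia held 1.61, 9.01 and 8.34 CPM in SH and 4.26, 3.71 and 3.83 CPM in KA, with a logFC of -0.70 (standard error 0.45). The low-input library of SH replicate 1 lay below all KA libraries and the other SH libraries above them. Bok (ENSMUSG00000026278, chromosome 1 from 93685660 to 93695764), a member of the BCL-2 family of cell death regulators, had 25.2, 27.0 and 38.5 CPM in SH neurons and 26.2, 33.0 and 36.3 CPM in KA neurons. SH glia held 12.9, 11.7 and 12.2 CPM and KA glia 7.74, 14.4 and 17.0 CPM. Its logFC was 0.08 in neurons (standard error 0.33) and 0.10 in glia (standard error 0.34).

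Counted over the 9 markers, 1 was lower and 0 were higher in KA neurons at an FDR below 0.25 in edgeR, against a background of 0.0612% lower and 0.279% higher among the 37598 genes tested. At an unadjusted p below 0.05, 3 were lower (Calb1, C1ql2 and Cpne4) and 0 higher, against 1.33% and 1.87% of all genes. DESeq2 called 2 lower and 0 higher, against 0.372% and 0.777%. For 6 of 9 markers in neurons (C1ql2, Calb1, Dsp, Wfs1, Fibcd1 and Cpne4) every KA library was under every SH library, and for 0 it was above, where 4.45% of all genes lay below and 5.27% above. The markers were chosen with earlier results of these data known, so such counts, here and below, are no test against the background. The median logFC of the 9 markers was -0.83, against 0.00 over all genes tested. When the neurons were fitted alone, 4 markers were lower, namely C1ql2, Calb1, Fibcd1 and Cpne4, and 0 higher, in a fit that called 0.772% of all its genes lower and 1.28% higher. The study's own list of genes lower in neurons, at the same FDR threshold, does not hold any of the 9 markers. With the replicate block 2 were lower, C1ql2 and Calb1, and 0 higher, where 1.11% and 1.94% of all genes were called.

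In glia, 1 of 9 markers was lower and 0 were higher, against 0.306% lower and 0.442% higher of all genes tested. Over all genes, 166 were higher and 115 lower in this comparison, and 305 and 572 with upper quartile factors. For the markers, 2 were lower and 0 higher at an unadjusted p below 0.05, against 2.69% and 2.1% of all genes. DESeq2 called 2 lower and 0 higher, against 1.6% and 0.968%. Only Calb1 had its KA below its SH libraries without overlap, and 0 markers lay above, against 3% and 3.61% of all genes. The median logFC of the markers was 0.08, against 0.14 over all genes. A fit of the glia alone called 0 markers, with 0.0507% of all its genes lower and 0.385% higher. The study, by contrast, lists Calb1 as lower in glia at an FDR below 0.25. The replicate block called 2 lower, C1ql2 and Calb1, and 0 higher, where 4.17% and 3.47% of all genes were called.

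**Figure D2:**
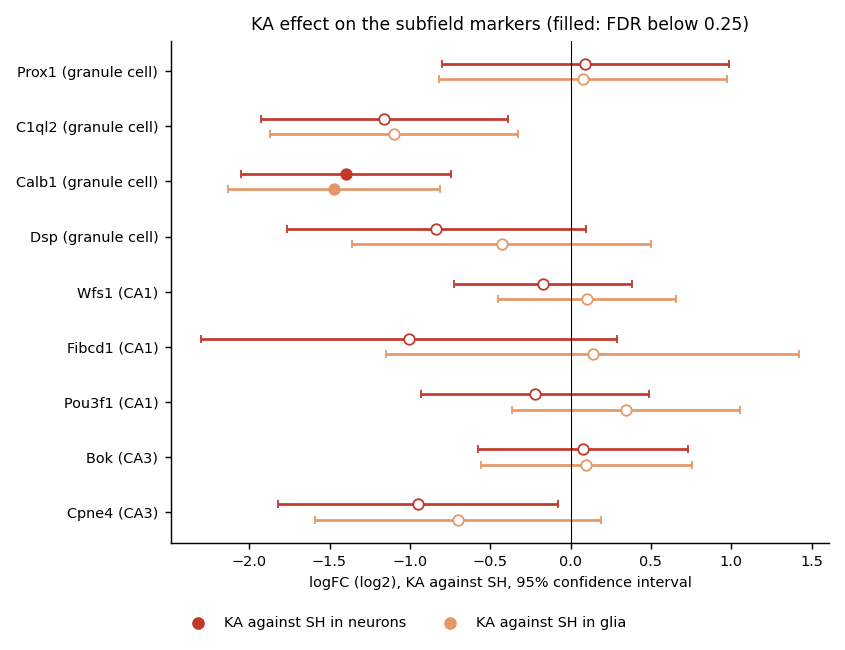
Horizontal axis, logFC (log2) of KA against SH with its 95% confidence interval for each of the 9 markers, in neurons (dark) and glia (light); filled points have an FDR below 0.25. Calb1 is the filled marker in both fractions, at -1.40 and -1.47. The intervals of Calb1 and C1ql2 in both fractions and of Cpne4 in neurons exclude 0, and all others span 0.

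The effects in neurons and glia were compared directly. Differences in logFC, neurons minus glia, ran from -1.14 for Fibcd1 (standard error 0.93) to 0.08 for Calb1 (standard error 0.46, 95% confidence interval from -0.83 to 0.98). In this test 0 of 9 markers and 0% of all genes passed in either direction with edgeR. At an unadjusted p below 0.05 there were 0 markers, with 0.761% of all genes higher and 0.574% lower in neurons than in glia. DESeq2 called 0 markers, with 0.0479% and 0.0426% of all genes, and with the pool as a replicate block 0 markers were called, with 0.314% and 0.157% of all genes. Genes of excitatory neurons were also counted in glia. There Slc17a7, Neurod2, Neurod6, Nrgn and Camk2a summed to 161, 569 and 723 CPM in SH glia and 98.6, 244 and 501 CPM in KA glia, and all 5 had a negative logFC. Their part in the lower Calb1 of KA glia was not tested.

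Ratios of counts within a library do not depend on how libraries are scaled, and they were taken between markers of the same subfield after the fits had been seen, with no test. The ratio of Calb1 to Prox1 was between 0.769 and 2.65 in SH neurons and between 0.265 and 0.697 in KA neurons. For C1ql2 over Prox1, SH neurons gave 1.28 to 4.11 and KA neurons 0.602 to 1.12. Both ratios were also lower in all KA glia, with Calb1 over Prox1 at 0.193 to 0.344 in SH and 0.0402 to 0.143 in KA and C1ql2 over Prox1 at 0.317 to 0.331 and 0.123 to 0.212. Mean Prox1 in glia was 104% in SH and 103% in KA of its mean in neurons, so in glia these ratios may not follow granule cells alone. In the other subfields, Fibcd1 over Wfs1 went from between 1.27 and 2.08 in SH neurons to between 0.825 and 1.16 in KA neurons, and Cpne4 over Bok from between 0.828 and 1.55 to between 0.468 and 0.671. These 4 ratios did not overlap between SH and KA in neurons. Pou3f1 over Wfs1, at 0.642 to 0.814 in SH and 0.652 to 0.722 in KA neurons, and Dsp over Prox1, at 0.114 to 0.189 and 0.0467 to 0.121, did overlap. In glia, SH and KA overlapped for these and also for Fibcd1 over Wfs1, at 0.0538 to 0.838 in SH and 0.296 to 0.835 in KA, and for Cpne4 over Bok, at 0.125 to 0.771 and 0.226 to 0.551.

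**Figure D3:**
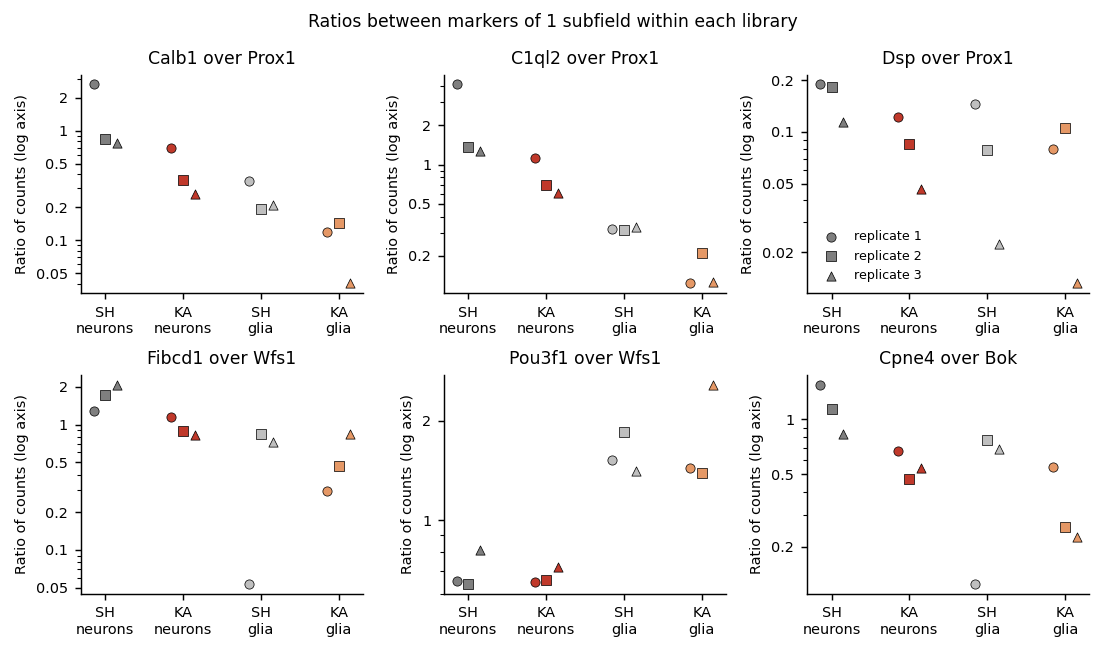
Vertical axes (log scale), the ratio of raw counts of 2 markers of the same subfield within each library, by group along the horizontal axis; symbols mark the replicate. Calb1 and C1ql2 over Prox1, Fibcd1 over Wfs1 and Cpne4 over Bok are lower in the 3 KA than in the 3 SH libraries of neurons.

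Sorting placed most, but not all, of the markers in the NeuN+ fraction. At an FDR below 0.05, 6 of 9 were higher in NeuN+ than in NeuN- libraries and 0 were lower, against 11.6% and 6.91% of all genes tested. The same 6 had all NeuN+ above all NeuN- libraries, as did 7.6% of all genes. Over all genes, 4367 were higher and 2597 lower, and 3250 and 2965 with the size factors of DESeq2. The logFC was 2.41 for C1ql2, 2.29 for Cpne4, 2.26 for Calb1, 2.18 for Fibcd1, 1.29 for Bok and 0.99 for Wfs1. Dsp had 0.88 (FDR 0.0877) and passed with the pool as a replicate block (FDR 0.00931), a fit that called 19.7% of all genes higher and 9.84% lower. Prox1, at -0.05 (standard error 0.32), and Pou3f1, at -0.33 (standard error 0.26), were no higher in NeuN+ libraries.

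Expressed as a percentage of the mean in neurons, the mean in glia was 104% in SH and 103% in KA for Prox1, and 103% and 153% for Pou3f1. For C1ql2 it was 18.5% and 19.2%, for Calb1 21.4% and 20.2%, for Cpne4 18.6% and 22.4% and for Fibcd1 14.8% and 32.8%. Bok, Wfs1 and Dsp lay between these, from 40.5% to 62.6%. The pan-excitatory genes gave 8.87% to 30.8%. For Prox1 and Pou3f1 the levels thus went against a label as genes enriched in excitatory neurons.

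**Figure D4:**
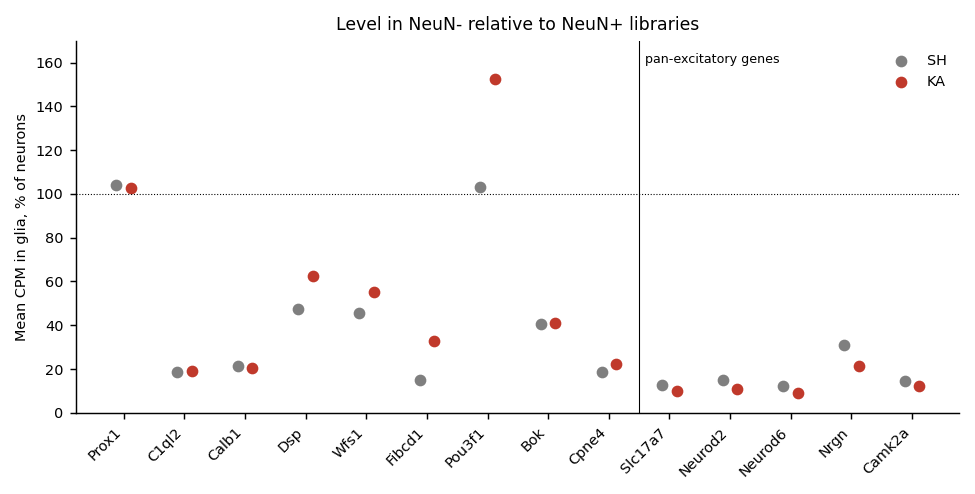
Vertical axis, mean CPM in glia as a percentage of the mean CPM in neurons, for the 9 markers and 5 pan-excitatory genes, in SH and KA (3 pools each). Prox1 and Pou3f1 sit at or above the dotted line at 100%, and C1ql2, Calb1 and Cpne4 near the pan-excitatory genes.

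Per kilobase of exon, C1ql2 had the highest level of the 9 markers in SH neurons, 137 ± 34.6 CPM per kb (SD, n = 3), above all others without overlap. Calb1 followed at 35.2 ± 9.64 and Fibcd1 at 33.6 ± 7.95 CPM per kb, which overlapped with each other. Wfs1, at 24.9 ± 0.092 CPM per kb, overlapped with Prox1 at 17.9 ± 8.12, which did with Pou3f1 at 17.2 ± 2.27, and this with Bok at 16.4 ± 3.91. Cpne4 at 6.17 ± 0.813 and Dsp at 2.33 ± 0.636 CPM per kb came last, each apart from its neighbours. In KA neurons C1ql2 stayed first at 61.2 ± 5.54 CPM per kb, while Calb1 stood in seventh place at 13.4 ± 3.60 CPM per kb, although it overlapped with Pou3f1 above it.

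Upstream sequences were looked up in RefSeq (GRCm38.p6), where 7 of the 9 markers had 9 promoters in all, and Calb1 and Pou3f1 had no entry. The 250 bases before the start are shown for C1ql2 and Prox1, granule cell genes with unlike values in KA. They are also shown for Fibcd1 and Wfs1, which are such a pair in CA1. Prox1 had 2 promoters, of which the first is shown. Capitals mark GC boxes (GGGCGG), the E-box CAGATG and TATAAA on either strand.
C1ql2, chr1:120340332-120340581, plus strand: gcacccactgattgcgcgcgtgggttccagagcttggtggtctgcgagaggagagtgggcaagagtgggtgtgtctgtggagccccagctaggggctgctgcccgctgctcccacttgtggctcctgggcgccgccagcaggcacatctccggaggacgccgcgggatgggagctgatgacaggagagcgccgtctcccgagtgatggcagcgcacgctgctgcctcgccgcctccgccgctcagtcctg
Prox1, chr1:190170828-190171077, minus strand: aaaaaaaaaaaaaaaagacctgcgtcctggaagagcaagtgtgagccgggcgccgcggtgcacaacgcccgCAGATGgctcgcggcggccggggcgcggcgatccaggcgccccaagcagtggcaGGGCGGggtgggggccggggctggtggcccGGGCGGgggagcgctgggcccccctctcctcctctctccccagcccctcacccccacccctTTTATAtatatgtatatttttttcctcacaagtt
Fibcd1, chr2:31846006-31846255, minus strand: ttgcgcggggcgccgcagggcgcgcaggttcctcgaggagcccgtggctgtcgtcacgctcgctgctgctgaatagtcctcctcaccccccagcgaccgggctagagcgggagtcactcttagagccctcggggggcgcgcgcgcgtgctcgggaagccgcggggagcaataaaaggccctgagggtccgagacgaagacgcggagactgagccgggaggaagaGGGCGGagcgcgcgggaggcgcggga
Wfs1, chr5:36988983-36989232, minus strand: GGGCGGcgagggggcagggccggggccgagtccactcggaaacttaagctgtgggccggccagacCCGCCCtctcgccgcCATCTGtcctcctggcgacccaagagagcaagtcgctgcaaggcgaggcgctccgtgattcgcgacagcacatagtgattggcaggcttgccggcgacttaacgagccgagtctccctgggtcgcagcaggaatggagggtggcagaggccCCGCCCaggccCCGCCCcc

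The promoter of C1ql2 held none of these letters, with 68.8% GC and 20 CpG. The promoter shown for Prox1 had 2 GC boxes, 1 E-box and 1 TATAAA, with 64.8% GC and 20 CpG. Its other promoter had 1 GC box and neither the E-box nor TATAAA, with 56% GC and 11 CpG. One GC box, 26 bases before the start, was found for Fibcd1, which had 34 CpG, and 4 GC boxes and 1 E-box for Wfs1, which had 23 CpG. Over all 32851 promoters the median was 52.4% GC and 6 CpG, so that the 4 promoters shown were rich in both. GC boxes were present in 7 of the 9 marker promoters and in 32.7% of all promoters. The E-box was in 14.4% and TATAAA in 12.4% of all. The cAMP response element TGACGTCA and the AP-1 site TGANTCA, both searched on either strand, were found in 0 of the 9 and in 1.55% and 6.75% of all promoters.

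Other genes of the same subfields gave a mixed picture. Of 10 further granule cell genes, 2 were lower and 0 higher in KA neurons, with a median logFC of -0.46. Of all genes tested, 0.0612% were lower and 0.279% higher in neurons, and 0.306% and 0.442% in glia. The list counts that follow are to be read beside these shares. Plk5, a polo-like kinase family member, went from 117, 82.0 and 119.6 CPM in SH to 20.2, 11.3 and 9.24 CPM in KA neurons. It fell by 2.97 on the log2 scale (FDR 0.0369). Stxbp6, a syntaxin-binding protein, fell by 1.54 (FDR 0.209), from 75.5, 73.0 and 129.7 to 24.9, 37.1 and 33.6 CPM. At the other end, Pdzd2 had a logFC of 1.21 (FDR 1.0). In glia, Plk5 alone of the 10 passed, with a logFC of -2.45 (FDR 0.06), and Glis3 was at the top with 1.51 (FDR 0.685).

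None of the 4 further CA1 and 5 further CA3 genes passed in either fraction. In neurons Spink8 was lowest of the CA1 genes at -1.82, and the CA3 genes ran from -1.60 for Iyd to 0.51 for Grik4. In glia Spink8 was again lowest in CA1 at -0.79, and the CA3 genes ran from -0.74 for Spock1 to 0.22 for Grik4. Of 6 CA2 genes, 0 passed in neurons, from -1.23 for Pcp4 to 0.17 for Cacng5. In glia Cacng5, which encodes an auxiliary subunit of AMPA receptors, rose from 14.9, 19.9 and 19.8 to 47.1, 81.9 and 126 CPM, a logFC of 2.22 (FDR 0.0339). The other 5 CA2 genes had a negative logFC in glia, with Pcp4 lowest at -1.20. Unlike those 5, Cacng5 was lower in NeuN+ than in NeuN- libraries (logFC -1.07, FDR 0.00857). Mossy cell genes ran from -0.60 for Calb2 to 0.55 for Drd2 in neurons and from -0.99 for Calb2 to 1.29 for Csf2rb2 in glia, with 0 of 3 called. Among 5 genes of immature granule cells, 0 were called, with Neurod1 lowest at -0.88 in neurons and -1.07 in glia and Sox11 highest at 1.42 and -0.07.

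Pan-excitatory genes had a negative logFC in both fractions. In neurons, 0 of 5 passed, with a median logFC of -0.82 and a range from -0.93 for Nrgn to -0.15 for Neurod2, close to the median of the 9 markers. In glia, Nrgn, a calmodulin-binding protein of excitatory synapses, fell by 1.44 (FDR 0.189), and Slc17a7 had the smallest shift at -0.53. Interneuron genes, with 0 of 8 called, had a median logFC of -0.12 in neurons, from -0.87 for Pvalb to 0.63 for Gad2, and ran from -0.998 for Sst to 0.35 for Gad2 in glia.

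Markers of other cells were measured in the same fits. Astrocyte genes, 0 of 8 called, ran from -1.30 (Gjb6) to 0.93 (Aqp4) in neurons and from -1.69 (Gja1) to 0.68 (Aqp4) in glia. Microglial genes ran from -0.62 (P2ry12) to 0.68 (Csf1r) in neurons, and in glia P2ry12 fell by 2.38 (FDR 0.0826) with C1qa at the top at -0.14. Oligodendrocyte genes, 0 of 7 called, ran from -0.88 (Cnp) to -0.23 (Mobp) in neurons and from -1.50 (Cnp) to -0.46 (Cldn11) in glia. Their sum was 11840 to 25050 CPM in SH glia and 6438 to 12017 CPM in KA glia. Of the precursor genes, Cspg4 fell by 1.44 in glia (FDR 0.24) and had -0.38 in neurons, with Pdgfra at -0.81 and -0.27. Endothelial genes ran from -0.66 (Cldn5) to 0.32 (Flt1) and from -0.61 (Cldn5) to 0.77 (Pecam1). The meningeal gene Ogn fell by 2.66 in neurons (FDR 0.133), with Col1a1 at the top at 0.60, and in glia the list ran from -0.70 (Lum) to -0.15 (Col1a2). Choroid plexus genes ran from -2.37 (Ttr) to 0.22 (Kl) in neurons and from -2.91 (Ttr) to 0.24 (Kl) in glia. The part of these lists in the values of the 9 markers was not tested.

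**Figure D5:**
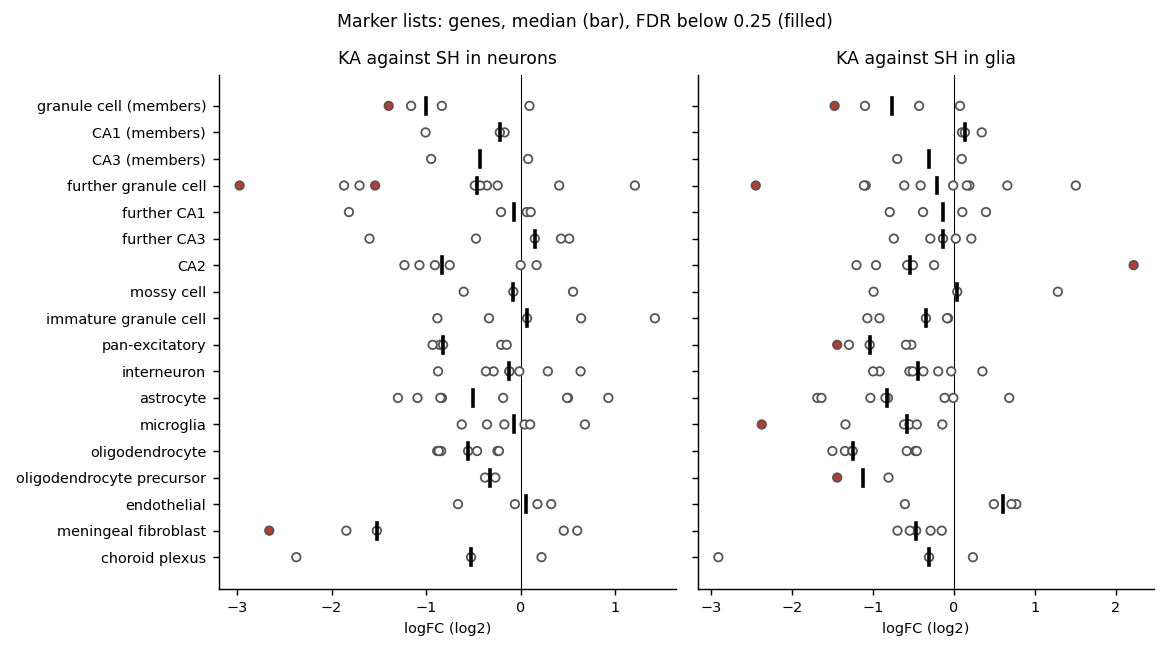
Horizontal axes, logFC (log2) of KA against SH for each gene of the marker lists, in neurons (left) and glia (right); vertical bars are list medians and filled points have an FDR below 0.25. In neurons the medians of the granule cell markers and of the pan-excitatory genes lie at -0.997 and -0.82.

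The genes most like each subfield were found by the correlation of log2 CPM with the mean of its markers over 12 libraries, among 13365 protein-coding genes. For the granule cell markers these were Faah (r = 0.987), Pcdh20 (r = 0.987) and Tspan33 (r = 0.982), which kept r of 0.985, 0.974 and 0.909 within the 6 libraries of neurons. Cacna1d (r = 0.981), Ajap1 (r = 0.975) and Rrp15 (r = 0.973) were closest to the CA1 markers, with 0.855, 0.916 and 0.657 within neurons. For the CA3 markers, Krt77 (r = 0.993), Adgrl2 (r = 0.992) and Ntng1 (r = 0.992) came first, with 0.935, 0.932 and 0.859. The 12 libraries share pools and the split into NeuN+ and NeuN-, which the markers follow.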

How the data were processed

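Hippocampi were pooled within each treatment, nuclei sorted by NeuN, and mRNA amplified with an oligo(dT) kit and sequenced. The authors trimmed reads with Trim Galore (version 0.4.3 per the submitters' processing notes), aligned them to mm10 with Rsubread and deposited whole-number read counts per gene (featureCounts defaults, unstranded, GENCODE release M16), without normalization. Libraries held 7769400 to 40364768 counts, and which were single or paired reads is not given in the sources used here. RRBS data were not used here.

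Groups came from the labels for treatment and NeuN. Symbols and positions were taken from GENCODE M21, and 105 of 53379 genes without a symbol were left out. After filterByExpr (minimum count 10, minimum total 15), 37598 genes were tested with edgeR 4.0.16 (R 4.3.3, limma 3.58.1), using TMM factors, glmQLFit with legacy=TRUE and glmQLFTest, in 1 fit of 12 libraries with 4 group means. FDR is the Benjamini-Hochberg adjusted p over all genes tested, with a threshold of 0.25, or 0.05 for NeuN+ against NeuN-. The study's methods treat the cell types separately, and this fit is given as an alternative. That alternative tested 32012 genes in neurons and 33509 in glia, more than the study did, and its calls among the markers differ from the study's. Standard errors were derived as |logFC| divided by the root of the F statistic. The test was tried on simulated data with known changes, larger than the KA effect on any marker. A bound first set on the share of changed genes recovered was not met and was dropped. Real changes of the size seen for the markers may thus go uncalled.

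Deviations from the group means correlated across genes between KA and SH libraries of the same number, in neurons at 0.399 (replicate 1), 0.264 (replicate 2) and 0.551 (replicate 3) and among glia at 0.457, 0.543 and 0.764, so the number was taken to pair them and a replicate block was tried. Other alternatives were DESeq2 1.42.0, other scalings, filters, gene sets and thresholds, and libraries left out. The markers and all gene lists were chosen with earlier results of these data known. All 9 markers are named, with called genes and the highest and lowest logFC of each list (the value of 1 gene is not reported here), and the 3 protein-coding genes most correlated with each subfield at a mean of at least 5 CPM in neurons or glia (pseudocount 0.5). Plots used Python 3.11.15 and matplotlib 3.10.9.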

Additional observations from a re-analysis of the deposited data

How the results depend on the processing

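Of the 9 markers, 1 was lower in KA neurons and 1 in KA glia in the main fit of 12 libraries. Fits of each cell type alone gave 4 and 0, the replicate block 2 and 2, upper quartile factors 2 and 2, at least 10 counts in every library 2 and 2, DESeq2 2 and 2, no filter on low counts 0 and 0, and an FDR of 0.05 gave 0 and 0. Size factors of DESeq2 in edgeR gave 0 in neurons, and leaving out both low-input libraries gave 0 in glia. Leaving out every library with number 3, a choice made after seeing the data, gave 0 and 0. The share of all genes called lower also differed. It was 0.0612% in neurons and 0.306% in glia in the main fit, and 0.772% and 0.0507% for each cell type alone. With the replicate block it was 1.11% and 4.17%, with upper quartile factors 0.191% and 1.52%, and with at least 10 counts 0.73% and 4.08%. DESeq2 gave 0.372% and 1.6%, no filter 0.0175% and 0.175%, an FDR of 0.05 gave 0.00266% and 0.0293%, and leaving out number 3 gave 0% in both. It was 0.0452% in neurons with the size factors of DESeq2 and 0.00253% in glia without both low-input libraries. Without 1 library at a time, counts ran from 0 to 1 in either fraction. Markers lower in NeuN+ libraries went from 0 to 1 (Pou3f1) with at least 10 counts in every library. That fit called 20.8% of all genes lower in NeuN+, against 6.91% in the main fit. Wfs1 lost its call as higher in NeuN+ without a filter (FDR 0.0731) and without both low-input libraries (FDR 0.168). It also did so without KA glia replicate 1 (FDR 0.101) and without KA glia replicate 2 (FDR 0.096). Each of these fits left 5 of the 6 markers. In that order they called 5.55%, 5.25%, 5.8% and 5.92% of all genes higher, against 11.6% in the main fit. The cause of these shifts was not tested. The block and the pairing changed no other call than those of C1ql2, and of Dsp between NeuN+ and NeuN-. Calb1 kept a negative logFC in neurons and glia in every alternative.

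Directions turned for values short of the threshold. Prox1 in glia was -0.013 with the replicate block, -0.0074 without a filter, -0.0024 without the low-input libraries and -0.27 without number 3. Without the low-input libraries, Fibcd1 was -0.26 and Bok -0.027 in glia, and without number 3, Wfs1 was -0.012, Fibcd1 -0.27, Pou3f1 -0.27 and Bok -0.15 in glia, the difference of Calb1 between fractions -0.023, and Prox1 between NeuN+ and NeuN- 0.12. With 1 library left out, logFC ran from -0.20 to 0.47 for Prox1 and from -0.039 to 0.29 for Bok in neurons. In glia it ran from -0.52 to 0.33 for Prox1, -0.80 to 0.094 for Dsp, -0.073 to 0.17 for Wfs1, -0.60 to 0.53 for Fibcd1, -0.24 to 0.59 for Pou3f1 and -0.14 to 0.34 for Bok. The difference of Calb1 ran from -0.14 to 0.30, and Prox1 between NeuN+ and NeuN- from -0.53 to 0.25. Of 588 values of single genes under an alternative, 519 kept direction and call, which includes values short of the threshold in both fits. For the difference between fractions, only values of Calb1 and Fibcd1 were among the 588. Calb1 itself lost its call in 9 of 18 alternatives in neurons and in 10 of 19 in glia. Over all genes, lower calls in neurons went from 23 to 417 and in glia from 115 to 1566 with the replicate block, and to 1 and 11 at an FDR of 0.05. Scaling with the size factors of DESeq2 moved the median logFC of NeuN+ against NeuN- over all genes from -0.15 to -0.30. Cpne4 and Fibcd1 in SH glia replicate 1 rest on 20 and 27 reads, and the 3 pools a group limit the precision of every logFC.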
